A study of Mus musculus with 6 samples.

Results

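Chromatin accessibility was analysed at the immunoglobulin and T cell receptor loci of white blood cells from mouse peripheral blood. Each locus ran from the first to the last annotated segment of its class, extended by 50 kb on each side, on the GRCm39 genome with GENCODE release M39. Peaks that shared at least 1 base between libraries were joined into 1 region, and a member was a joined region inside one of these loci. The 6 peak lists gave 62876 regions, of which 367 were members. There were 112 in Igh (heavy chain, chromosome 12), 124 in Igk (kappa light chain, chromosome 6), 23 in Igl (lambda light chain, chromosome 16), 70 in Tra/Trd (alpha and delta chains, chromosome 14), 30 in Trb (beta chain, chromosome 6) and 8 in Trg (gamma chain, chromosome 13). A region 0.581 kb outside the Igl locus was listed in all 3 HADA libraries, at summit pileups of 62, 66 and 77, and in 0 of 3 control libraries. The nearest member inside that edge, 15.1 kb away, had 13, 15 and none in control 1, 2 and 3 and 54, 55 and 54 in HADA 1, 2 and 3.

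The libraries formed 2 groups of 3, each library from about 50000 leukocytes after red cell lysis. The high-altitude de-acclimatization (HADA) group came from mice returned to normal oxygen after a stay in a hypobaric hypoxia chamber, and the control group from normoxic mice. Per the study's methods the mice were male C57BL/6j, 8 weeks old when obtained, and the chamber held a simulated altitude of 6000 m for 28 days. The labels give neither the day of sampling nor an animal for each library, so p-values measure the spread between these libraries. The cells were unsorted, so each value is an average over all white cells, and a larger share of lymphocytes and a more open locus per lymphocyte cannot be told apart.

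Antigen receptor genes are assembled in developing lymphocytes, in the marrow for B cells and in the thymus for T cells, by joining 1 V, in some loci 1 D, and 1 J segment in front of a constant (C) gene. The RAG recombinase cuts beside each segment at a recombination signal sequence, whose heptamer has the consensus CACAGTG. Enhancers near the C genes hold the assembled locus open in mature cells and, at Igh, are needed for class switching at the repeated switch sequences. Igh, Igk and Igl are open in B cells and the T cell receptor loci in T cells.

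Libraries held 34045 to 45799 peaks on the 21 main chromosomes. The library of control 3 stood apart, with the shortest list and peaks at the starts of 3 of 10 B cell marker genes, against 9 of 10 in control 1 and control 2 and 10 of 10 in each HADA library. Summed over these genes, such as Ms4a1, Cd79a, Cd79b and Pax5, the summit pileup over background was 228, 141 and 20.8 in control 1, 2 and 3 and 583, 622 and 553 in HADA 1, 2 and 3. For 10 T cell markers it was 314, 217 and 272 against 414, 390 and 361, with 6 to 8 genes carrying a peak in each library and none at Cd4 or Cd8a. For 8 neutrophil markers it was 221, 150 and 364 against 97.4, 51.2 and 33.4. Of 5 plasma cell markers 4 had a region, at summed levels of 131 to 200 in control against 291 to 306 in HADA libraries, and the defining marker Jchain had none. Of 3 gamma-delta T cell markers 2 had one (Sox13 and Blk), at 0 to 40.3 against 76.9 to 85.9, but Blk is also in the B cell list and makes up most of that sum. Of 5 NK cell markers 3 had one, at 0 to 15.4 against 17.9 to 37.2, with none at Ncr1 or Klrb1c, and of 5 monocyte markers 4 had one, at 50.6 to 76.4 against 82.9 to 91.9, with none at Ccr2. The monocyte genes did not move as 1 group: in the limma fit described below Csf1r (−0.91) and Cx3cr1 (−1.11) were lower on the log2 scale and Ly86 (1.14), at 50, 48 and 19 against 127, 110 and 127, was higher. All B cell and T cell sums were higher in each HADA library than in any control library, on a scale where the median region found in every library was itself 0.34 higher in HADA (log2). In the centred limma fit 3 of 3 tested B cell genes, 2 of 6 T cell genes and 1 of 3 plasma cell genes were higher and none was lower, and 4 of 4 tested neutrophil genes were lower. The part of these markers' cell types in the differences below was not tested.

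The summit windows that carry the findings are shown first. Summit pileup, the number of overlapping fragments at the top of a peak, was recovered from the deposited fold enrichment and p-value of each peak. Each window spans 201 bases around the summit of the tallest peak of a region, on the forward strand of GRCm39. Capitals mark the pentamer AGCTC in the first window, which lies in the interval between Ighj4 and Ighm that holds the intronic heavy chain enhancer and the mu switch repeats. In the others they mark any match to the motifs searched: the octamer ATGCAAAT, the heptamer CACAGTG, the E-boxes CAGGTG and CAGCTG, the RUNX letters TGTGGT, GAGGAAGT for PU.1, AGATAA for GATA factors, CCGGAAGT for ETS factors, and the longer CTCF and kappa-B motifs, on either strand.
Ighj4 to Ighm, chr12:113388285-113388485: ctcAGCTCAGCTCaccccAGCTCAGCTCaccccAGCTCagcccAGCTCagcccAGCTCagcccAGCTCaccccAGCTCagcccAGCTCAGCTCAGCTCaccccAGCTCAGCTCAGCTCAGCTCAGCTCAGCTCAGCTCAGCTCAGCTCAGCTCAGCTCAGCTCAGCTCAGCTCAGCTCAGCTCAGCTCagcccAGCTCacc
Igh 3′ regulatory region, chr12:113185896-113186096: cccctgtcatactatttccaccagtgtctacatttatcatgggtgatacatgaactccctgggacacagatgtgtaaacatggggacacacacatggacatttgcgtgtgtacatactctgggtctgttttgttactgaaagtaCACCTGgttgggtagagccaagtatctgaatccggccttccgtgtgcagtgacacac
Igkj5 to Igkc, chr6:70701394-70701594: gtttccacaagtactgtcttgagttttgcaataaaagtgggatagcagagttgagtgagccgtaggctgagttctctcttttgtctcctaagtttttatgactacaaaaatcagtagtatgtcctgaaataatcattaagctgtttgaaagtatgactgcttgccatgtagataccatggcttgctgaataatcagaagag
Igkc 3′ interval, chr6:70712555-70712755: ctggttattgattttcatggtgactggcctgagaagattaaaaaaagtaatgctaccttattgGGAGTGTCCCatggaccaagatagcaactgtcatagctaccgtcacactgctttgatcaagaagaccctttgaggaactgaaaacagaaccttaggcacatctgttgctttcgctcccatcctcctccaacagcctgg
Iglc4 3′ interval, chr16:18998305-18998505: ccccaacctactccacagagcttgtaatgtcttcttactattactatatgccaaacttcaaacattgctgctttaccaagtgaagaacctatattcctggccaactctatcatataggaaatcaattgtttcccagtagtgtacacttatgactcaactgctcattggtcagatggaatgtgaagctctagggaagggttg
Trac to Dad1, chr14:54465281-54465481: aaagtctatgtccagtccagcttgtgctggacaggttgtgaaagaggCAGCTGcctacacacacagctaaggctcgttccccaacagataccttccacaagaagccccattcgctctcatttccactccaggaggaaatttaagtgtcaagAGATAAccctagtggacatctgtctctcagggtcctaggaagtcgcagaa
Trac to Dad1, nearer Dad1, chr14:54470771-54470971: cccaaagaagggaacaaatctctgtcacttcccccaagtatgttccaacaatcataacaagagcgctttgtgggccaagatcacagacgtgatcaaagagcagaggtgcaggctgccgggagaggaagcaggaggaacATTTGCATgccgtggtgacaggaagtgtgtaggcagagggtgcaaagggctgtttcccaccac
Trbc2 to Trbv31, chr6:41531479-41531679: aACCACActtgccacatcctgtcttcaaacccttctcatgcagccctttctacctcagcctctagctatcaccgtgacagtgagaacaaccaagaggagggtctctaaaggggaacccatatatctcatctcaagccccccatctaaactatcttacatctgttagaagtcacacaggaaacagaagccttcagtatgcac
Trgc1 3′ interval, chr13:19403992-19404192: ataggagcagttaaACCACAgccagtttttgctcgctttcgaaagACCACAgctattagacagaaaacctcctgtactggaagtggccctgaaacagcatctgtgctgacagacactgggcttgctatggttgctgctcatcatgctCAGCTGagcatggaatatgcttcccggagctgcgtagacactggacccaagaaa

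The window between Ighj4 and Ighm held 30 matches to AGCTC or its complement, and 86.2% of its bases equalled the base 5 positions before. The window 3′ of Igkc, which is not that of the region with the highest mean pileup there, held a kappa-B match. The Trac window held an E-box CAGCTG and a GATA match, the one nearer Dad1 an octamer, the Trbc2 window a RUNX match, and the Trgc1 window 2 RUNX matches and an E-box. RUNX and E-box factors are regulators of T cell development. The windows at Igkj5 to Igkc and at Iglc4 had none of these letters, and the tallest region 3′ of Igha had 1 E-box CAGGTG.

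The first comparison asked how many members each group of lists held. Peaks were present at 179, 153 and 106 members in control 1, 2 and 3 against 248, 238 and 272 in HADA 1, 2 and 3, or 146 ± 37 and 253 ± 17.5 (SD, n = 3 each). The groups did not overlap, and the exact two-sided permutation test gave p = 0.1, the smallest that 3 against 3 libraries allow. HADA lists were also longer over the whole genome, but members made up 31.5 to 43.7 of each 10000 regions in control against 54.6 to 59.9 in HADA libraries. The excess lay in the immunoglobulin loci, at 23.3 ± 4.81 against 40.9 ± 1.17 for each 10000 regions, while the T cell receptor loci had 14.3 ± 1.27 and 16.1 ± 1.54 with overlapping ranges (SD, n = 3 each). The mean number of immunoglobulin members with a peak was 2.00 times as high in HADA as in control libraries, and 1.73 times without control 3.

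Igk had the widest gap. It had peaks at 39, 35 and 15 members in control against 80, 73 and 89 in HADA libraries. Igh had 63, 50 and 44 against 80 in each HADA library, and Igl had 13, 10 and 3 against 20, 20 and 22. Tra/Trd had 38, 32 and 23 against 43, 43 and 53, with the groups apart. Trb did not separate the groups, at 21, 22 and 20 against 21, 17 and 22, nor did Trg, at 5, 4 and 1 against 4, 5 and 6.

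**Figure D1:**
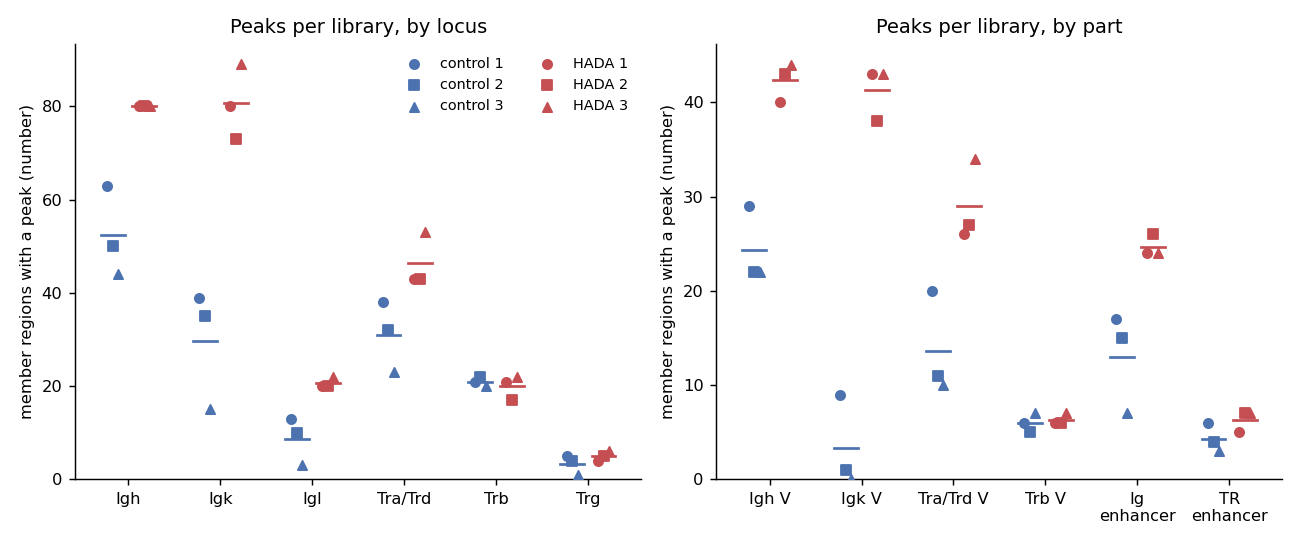
Number of member regions with a peak in each library (y axis), by locus (left) and for the V segments and enhancer intervals (right, Ig for immunoglobulin and TR for T cell receptor loci). Each symbol is a library and each line a group mean. HADA libraries lie above all control libraries in Igh, Igk, Igl and Tra/Trd but not in Trb, and the Igk V segments go from 9, 1 and 0 to 43, 38 and 43.

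Peaks found in every HADA library and no control library numbered 43 of 367 members (11.7%), against 7.01% of all 62876 regions. Igk held 25 of them (20.2% of its members) and Igl 4 (17.4%). Igh held 9 (8.04%) and Tra/Trd 5 (7.14%), shares near that of all regions, and Trb and Trg held none. The opposite pattern occurred at 3 members, 1 each in Igh, Igk and Tra/Trd, against 1.88% of all regions. Without control 3 these counts were 44 and 8, and without control 1 they were 77 and 3, where the HADA-only share of all regions was 7.36% and 11.4%. With equal numbers of strongest peaks in each library they were 38 and 10 of 272 members, where the HADA-only share of all regions was 5.84%.

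V segments supplied 166 members, and most of the HADA-only ones (30). At Igk V segments, peaks were present at 9, 1 and 0 members in control against 43, 38 and 43 in HADA libraries. The HADA libraries stood above every control library, with or without control 3. Igh V segments had 29, 22 and 22 against 40, 43 and 44, Tra/Trd V segments 20, 11 and 10 against 26, 27 and 34, and Trb V segments 6, 5 and 7 against 6, 6 and 7. The 3 Igl V segments had 2, 1 and 0 against 3 in each HADA library. Over the 62876 regions, 32.1% had a pileup over background above every control library in each HADA library, with a missing peak set to the smallest pileup of its list, and 20.3% lay below. Among Igk V members these were 28 and 0 of 56, among Igh V members 13 and 5 of 55, and among Tra/Trd V members 14 and 1 of 41. The Igh V shares, 23.6% and 9.09%, both lay under those of all regions. None of the 56 Igk V members had a peak in every library. A peak missing from a control list is placed low there by construction, which raises the counts of members above. In the limma fit described below, 0 of 13 tested Igh V members were higher and 2 lower, against 18.4% and 24.5% of all regions.

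Among the tallest HADA-only members of Igk, the region 967 bases from Igkv13-76, chr6:69113699-69114236, had pileups of 31, 41 and 48 in HADA 1, 2 and 3. One between segments, 1259 bases from Gm42606 at chr6:69639250-69639979, had 44, 38 and 40, although its summit sequence occurs 5 times in the genome. In Igh, a region 992 bases from the pseudogene Ighv1-41, chr12:114894663-114895276, had 36, 32 and 44, and one in Ighv14-2, chr12:113957829-113958557, had 22, 30 and 20. In Igl, one 2544 bases from Iglv2, chr16:19081620-19082332, had 42, 36 and 32, one between segments at chr16:19064440-19065263 had 29, 28 and 39, and one in Iglv2, chr16:19078712-19079621, had 22, 22 and 28. HADA-only members of Tra/Trd were lower, at 17, 14 and 17 near Trav11d, 17, 19 and 12 in Trav14n-1 and 17, 16 and 14 near Traj26. These last values lay close to the smallest pileups in the lists, 7 to 9, so presence or absence there turns on few fragments. The control-only members were likewise low, at 15, 24 and 12 in Tra/Trd (4424 bases from Trav15n-3), 10, 17 and 10 in Igh and 9, 15 and 15 in Igk, where the summit sequence occurs 9262 times.

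Peaks marked a minority of V segments and seldom pseudogenes. Of 364 V segments annotated as genes, 140 (38.5%) had a member, against 22 of 189 pseudogenes (11.6%). The share was not even along Igh: when its V region was cut into 3 stretches of equal length, 63.3% of 49 V segments in the stretch farthest from the constant genes had one, 23.6% of 72 in the middle and 4% of 75 in the nearest. The Ighv1 family, the J558 group of the distal part, had members at 37 of 92 segments and Ighv8 at 10 of 16, while 0 of 21 Ighv5 and 0 of 11 Ighv2 segments had any. In Igk the stretches had 28.6%, 33.3% and 32.8%, and the Igkv4 family had members at 18 of 33. In Tra/Trd, Trav15 had 8 of 9, Trav13 10 of 13 and Trav7 0 of 14. Members with a summit sequence that occurs more than once made up 65 of the 166 at V segments, and peaks at such copies cannot be assigned to 1 segment with certainty.

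Summits took different places on V segments of the B and T cell loci. At Igh, 47 of 55 V members had their summit within 250 bases of the 3′ end of the segment, where the recombination signal lies, and the median summit lay 86 bases before that end. At Igk it was 37 of 56, with a median 92 bases before it. At Tra/Trd, 9 of 41 lay within 250 bases of the 3′ end and 25 within 250 bases of the 5′ end, where transcription starts, with a median 85 bases after it. The heptamer CACAGTG, on either strand, was in 27.7% of V windows and in 6.24% of the windows of all regions. It was in 42.9% of Igk, 32.7% of Igh and 4.88% of Tra/Trd V windows. In 38 of the 46 V windows with a heptamer it began at the first base after the annotated segment. The octamer, a common element of immunoglobulin promoters, was in 8 Igk V windows (14.3%), 0 of 55 Igh V windows and 1.64% of all regions.

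**Figure D2:**
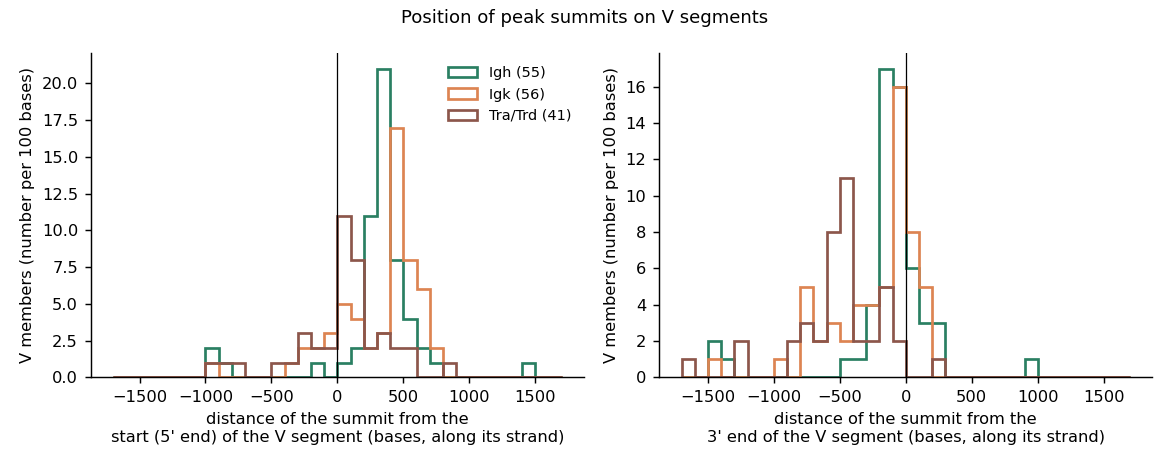
Distance of the summit from the 5′ end (left) and the 3′ end (right) of the nearest V segment, in bases along the strand of the segment, as the number of V members per 100 bases. Igh and Igk summits gather just before the 3′ end (medians 86 and 92 bases before it) and Tra/Trd summits just after the 5′ end (median 85 bases after it).

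The Igkv4-51 window shows such a heptamer, in capitals as its complement, 1 base after the segment. It was chosen after its values were seen, as the tallest V member with a heptamer.
Igkv4-51, chr6:69658364-69658564: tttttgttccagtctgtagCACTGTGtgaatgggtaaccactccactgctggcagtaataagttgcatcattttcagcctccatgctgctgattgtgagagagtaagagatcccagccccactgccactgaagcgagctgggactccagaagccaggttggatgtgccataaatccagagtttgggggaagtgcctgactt

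Igkv4-51 (chr6:69658068-69659039) had a pileup of 21 in control 1, no peak in control 2 or 3, and 80, 100 and 91 in the HADA libraries. Trav6n-7 (chr14:53556130-53557013) had 16, 22 and 8 against 46, 54 and 69, and Trav6d-7 (chr14:53244949-53245905) had 17, 20 and 17 against 46, 55 and 55. Neither pair of groups overlapped. In the fit described next, the log2 difference was 1.35 ± 0.36 for Trav6n-7 and 0.90 ± 0.24 for Trav6d-7 (SE, limma adjusted p = 0.017 for each), and since each summit sequence is found at 2 places in the genome they may be 1 measurement. These were the V members called higher. Trbv1 (chr6:40867623-40868914) was called lower, at 75, 72 and 163 against 83, 43 and 54, and so were regions near Ighv1-64 (2 copies of its summit), at 16, 18 and 24 against 16, 12 and 12, and Ighv1-69, at 31, 30 and 37 against 25, 24 and 28. These calls were lost when single HADA libraries were left out. Without HADA 2 the limma adjusted p was 0.065 for Trav6n-7, 0.080 for Trav6d-7, 0.073 for Trbv1, 0.057 for Ighv1-64 and 0.058 for Ighv1-69. Without HADA 3 it was 0.064, 0.065, 0.054 and 0.051 for the first 4, and without HADA 1 it was 0.058 for Ighv1-69, which was also lost when pileups were divided by background (adjusted p = 0.12). Ranked by the deposited fold, 3 V members were higher and 0 lower, against 7.64% and 5.82% of all regions. There Trav6d-7 and Trav6n-7 stayed called (limma adjusted p = 0.020 and 0.041), and the lower calls were lost.

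Peak heights were compared with limma over the 23970 regions with a peak in every library, on log2 summit pileup centred on the median region of each library, with Benjamini-Hochberg adjustment over all of them. Before centring, the median region was 0.59 higher in HADA on the log2 scale, and all differences are relative to that shift. Over all regions 18.4% passed the threshold of 0.05 as higher in HADA and 24.5% as lower. Of the 64 members among them 13 were higher and 17 lower, shares near those of all regions. When pileups were divided instead by the library's genome-wide background, 18 were higher and 13 lower, so 58.1% of calls were higher in place of 43.3%. All regions moved likewise under that scaling, to 32.2% higher and 17.6% lower. The median difference was −0.52 over 38 immunoglobulin members and 0.05 over 26 T cell receptor members, against −0.04 over all regions. The immunoglobulin median had no fixed sign, at 0.033 without control 3 and 0.015 over members with a unique summit. These 64 leave out most of the members described above, since a region absent from 1 list does not enter. With regions listed in at least 3 libraries and a missing pileup set to the smallest of its list, 23.4% of 44013 regions were called higher and 23.4% lower, and 72 and 40 of 225 members, a count that regions seen in a single group raise by construction.

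Within the loci the calls divided by part. Of the 10 enhancer members tested 9 were higher and 0 lower, with a median difference of 0.90. Of 20 V members 2 were higher and 3 lower. Of 21 members between segments 1 was higher and 11 lower, with a median of −1.08. None of the 3 tested D, J and C members was called. Without control 3, 89 members entered and 26 were higher and 21 lower, where 19.9% of 27407 regions were higher and 23.4% lower. All 16 enhancer members tested were higher, and 4 members between segments were higher and 15 lower of 27.

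**Figure D3:**
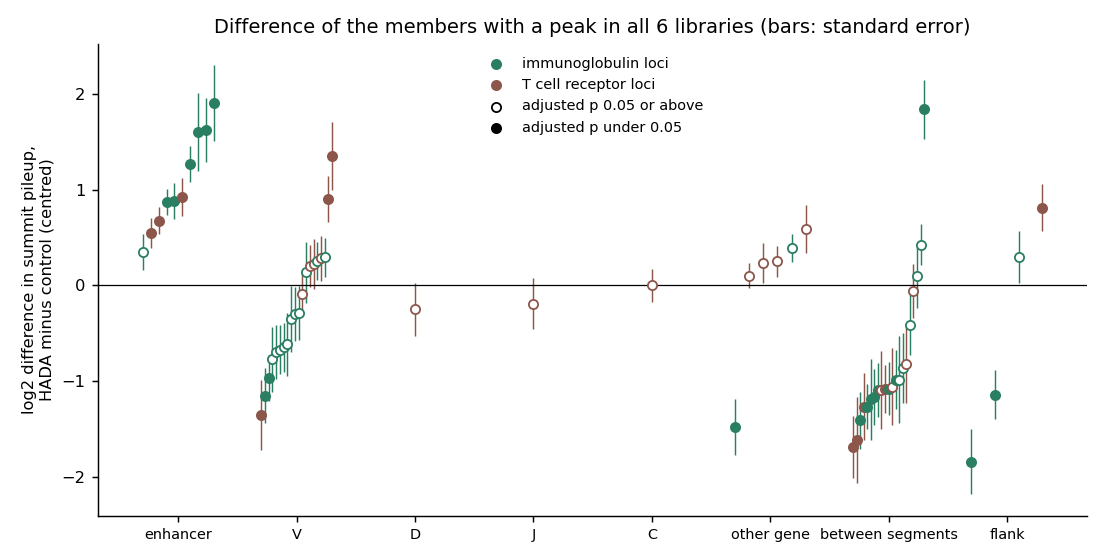
Log2 difference in summit pileup, HADA minus control after centring (y axis, bars are standard errors), of the 64 members with a peak in all 6 libraries, by part of the locus (x axis). Filled symbols have an adjusted p under 0.05. All 10 enhancer members lie above 0 and most members between segments lie below.

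The reference annotation holds no enhancer positions, so enhancer members are regions in the intervals where the known enhancers lie. There were 34, of which 24 lacked a peak in at least 1 library. Of the 34, 27 had pileups over background above every control library in each HADA library, and 0 lay below, against 32.1% and 20.3% of all regions. A missing peak was again set to the smallest pileup of its list. Members absent from a control list were thus placed low there by construction, which raises the count of 27. The intervals are described locus by locus.

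At Igh, the interval 3′ of Igha covers the 3′ regulatory region, which drives class switching and high expression in activated B cells and plasma cells. It held 10 members. The tallest, chr12:113185593-113186804, had control pileups of 146, 165 and 123 and HADA pileups of 466, 362 and 395, a log2 difference of 0.87 ± 0.14 (SE, limma adjusted p = 0.0063). Its neighbour at chr12:113183691-113184338 rose from 64, 52 and 35 to 186, 175 and 183, a difference of 1.27 ± 0.19 (SE, limma adjusted p = 0.0063). The groups stood well apart at both. At chr12:113207947-113208973 the pileups were 32, 19 and 8 against 94, 90 and 110, at 1.90 ± 0.40 (SE, limma adjusted p = 0.0085), and at chr12:113181090-113181694 they were 68, 61 and 39 against 165, 152 and 148, at 0.88 ± 0.19 (SE). Another, at chr12:113197720-113198352, was HADA-only at 25, 30 and 25, with a summit sequence found at 2 places. Relative to the start of Zfp386, a zinc finger gene at the far end of the same locus, the tallest region stood at 1.20, 1.28 and 1.31 in control against 1.91, 1.72 and 1.66 in HADA libraries, a ratio that needs no scaling between libraries (exact two-sided permutation p = 0.1, the smallest possible).

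The local background that the peak caller set under the tallest of these peaks was higher in HADA libraries too. It was 20.1, 18.5 and 11.7 fragments in control against 67.8, 53.1 and 58.7 in HADA libraries, and the deposited fold enrichment was 6.98, 8.53 and 9.74 against 6.79, 6.71 and 6.63. Ranked by that fold, 0 of the 10 enhancer members were called by limma, in a fit that called 7.64% of all regions higher and 5.82% lower, and this region had a difference of −0.47 normal scores (adjusted p = 0.16). The calls for enhancers were thus made on the height of the summit. The lists do not show how much of the local background comes from fragments of the peak itself and its neighbours. The fold therefore cannot show whether the surroundings of the enhancers rose.

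The interval from Ighj4 to Ighm held 1 member, chr12:113387927-113389026, at the pentamer repeat shown above. It was the tallest of all 367, with pileups of 1319, 1104 and 1332 in control against 2802, 2243 and 2338 in HADA libraries, and ranked between 6 and 24 among all regions of each library. The local background there was 73.9 to 89.1 fragments in control against 168 to 200 in HADA libraries. Its centred difference of 0.35 ± 0.19 was not called (SE, limma adjusted p = 0.16), but it was called higher when pileups were divided by the genome-wide background (adjusted p = 0.001) or without control 3 (adjusted p = 0.011). The deposited fold, a ratio to that local background, was 14.7, 14.8 and 15.8 against 13.98, 13.3 and 12.6, with every HADA library below every control library. Ranked by fold the difference was −0.39 normal scores (limma adjusted p = 0.052). Since the local background was higher in HADA libraries too, the fold does not measure the change of the summit itself. Its ratio to the Zfp386 start was 10.8, 8.56 and 14.2 against 11.5, 10.7 and 9.82, with the groups overlapping. Although the 50 bases at its summit occur once in the genome, the lists do not show how fragments were placed within such a repeat, and no other member lay in the interval.

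At Igk, the HADA libraries had peaks at 7, 8 and 8 of the 8 enhancer members and control libraries at 4, 4 and 0. The region between Igkj5 and Igkc, chr6:70701127-70701879, which holds the intronic kappa enhancer, was HADA-only at 32, 29 and 39. The 3′ interval of Igkc holds the other kappa enhancers. The region at chr6:70712200-70713155 had 27 and 30 in control 1 and 2, no peak in control 3, and 95, 68 and 78 in HADA libraries. The region with the highest mean pileup over the libraries with a peak there, chr6:70720703-70721612, had 26 and 25, no peak in control 3, and 90, 82 and 85. None of the 8 had a peak in every library, so none was in the test. One other Igk region upstream of the J segments, chr6:70686243-70686898, 5478 bases from Igkv3-1, was the member of Igk called higher, from 51, 33 and 17 to 209, 151 and 152, at 1.84 ± 0.31 (SE, limma adjusted p = 0.006).

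At Igl, 7 of 8 enhancer members had HADA values above all control values, with missing peaks set to the smallest pileup, and 2 of the 8 had a peak in every library. The tallest, chr16:18965050-18965867, had 46 and 63 in control 1 and 2, no peak in control 3, and 245, 190 and 189, and its summit sequence was found at 2 places in the genome. Next to it, chr16:18971018-18972082 had 40, 40 and 11 against 152, 99 and 119 (1.60 ± 0.41, SE, limma adjusted p = 0.015), likewise with 2 copies, a call lost without HADA 2 (adjusted p = 0.0502), and without control 3 the difference was 0.99. The region 15344 bases 3′ of Iglc4, chr16:18997711-18998973, with a unique summit, had 69, 60 and 22 against 234, 215 and 193 (1.62 ± 0.33, SE, limma adjusted p = 0.008). Near Iglc1 and Iglc3 the tallest regions had 17, none and none against 79, 58 and 60, and none, 18 and none against 61, 56 and 63.

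At Tra/Trd, the interval from Trac to Dad1 holds the alpha enhancer, which activates Tra assembly and transcription in T cells. The tallest member of the locus, chr14:54464582-54465797, had pileups of 177, 149 and 114 in control against 394, 323 and 353 in HADA libraries, a difference of 0.68 ± 0.14 (SE, limma adjusted p = 0.0091). At chr14:54470435-54471444 they were 94, 87 and 51 against 222, 220 and 214, at 0.92 ± 0.20 (SE, limma adjusted p = 0.009). The start of Dad1, an oligosaccharyltransferase subunit expressed in all cells, was not called, at 159, 148 and 128 against 255, 235 and 228. The ratio of the enhancer to Dad1 in the same library was 1.11, 1.01 and 0.89 in control against 1.55, 1.37 and 1.55 in HADA libraries, with the groups apart (exact two-sided permutation p = 0.1). The Trac region itself, at 53, 51 and 46 against 79, 71 and 81, had a centred difference of 0.00 ± 0.17 (SE). No member lay in the interval that holds the delta enhancer.

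At Trb, the region between Trbc2 and Trbv31 that holds the beta enhancer, chr6:41530374-41532110, had 78, 62 and 54 against 160, 130 and 144. Its difference of 0.55 ± 0.16 passed the test (SE, limma adjusted p = 0.022), but not when any 1 HADA library was left out (adjusted p = 0.077 to 0.080) or with a replicate block (adjusted p = 0.058). Its ratio to the start of the neighbouring gene Ephb6 overlapped between groups, at 3.55, 2.00 and 3.00 against 3.08, 2.71 and 2.36. At Trg, where the tallest member was the start of the neighbouring gene Stard3nl (176, 123 and 110 against 285, 214 and 241, not called), the region 3′ of Trgc1, chr13:19403477-19404518, had 13, none and none against 28, 32 and 29. Those 3′ of Trgc2 and Trgc4 reached at most 17 in any library.

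**Figure D4:**
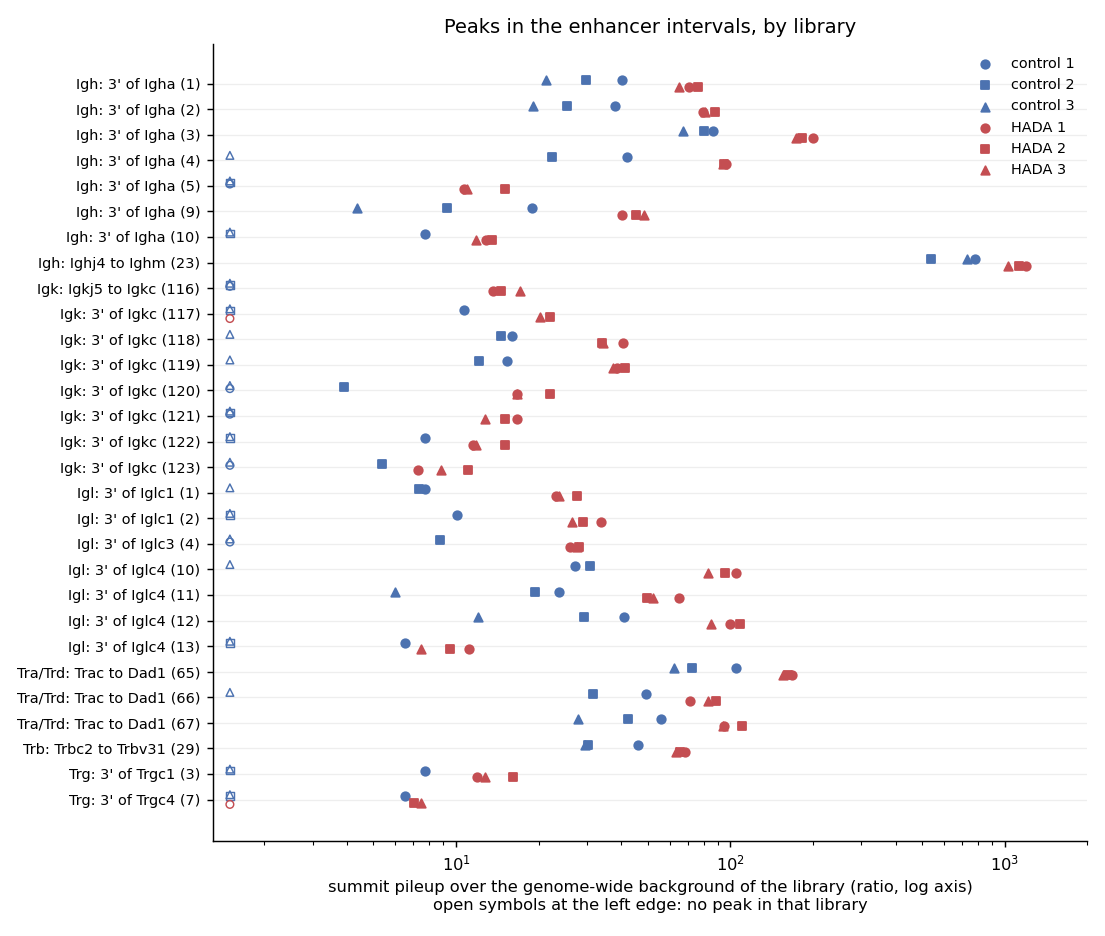
Summit pileup over the genome-wide background of the library (x axis, a ratio on a log axis) at the 29 enhancer members with a peak in at least 3 libraries (y axis, by locus and interval, with the serial number of the member). Open symbols at the left edge mark a library without a peak, and every HADA value lies to the right of the control values except at 2 members, Igk 117 and Trg 7, where HADA 1 has no peak.

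Few D, J and C segments had peaks, and those named here were chosen after their values were seen. There were 7 D, 6 J and 6 C members, and 3 of the 19 had a peak in every library. Ighd1-1 had 17, 14 and 15 in HADA libraries and none in control, and Igha had 24, 23 and 22 and none. Iglc2, chr16:19017359-19019673, had 13, none and none against 74, 66 and 74. Trbd1 overlapped between groups, at 22, 26 and 13 against 26, 24 and 26, as did Traj7, at 22, 18 and 15 against 21, 29 and 24.

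Members between segments held most of the lower calls, and many of them lie in repeated sequence. Of the 21 tested, 12 had a summit sequence that occurs more than once in the genome, and of these 8 were lower and 0 higher. Over all regions with such a summit 60.1% were lower and 4.40% higher, so the members did not stand out from that background. Of the 9 with a unique summit 3 were lower and 1 higher, against 19.8% and 20.2% of all regions with a unique summit. Ranked by the deposited fold, 1 of the 21 was lower and 0 higher, in a fit that called 5.82% of all regions lower and 7.64% higher. With pileups divided by background, 8 were lower and 2 higher, against 17.6% and 32.2% of all regions. In Trb, chr6:41173262-41174784 had 92, 88 and 171 in control against 79, 45 and 43 in HADA libraries, at −1.69 ± 0.32 (SE, limma adjusted p = 0.007), with 9 copies of its summit. In Igh, chr12:115709497-115712275, with 8 copies, had 61, 99 and 57 against 34, 34 and 58, at −1.41 ± 0.30 (SE). In Igk, chr6:67828362-67829585, with a unique summit, had 22, 31 and 17 against 14, 18 and 15, at −1.16 ± 0.29 (SE, limma adjusted p = 0.014), a call lost without HADA 1 (adjusted p = 0.057) or HADA 3 (adjusted p = 0.0505). The other lower members with repeated summits that the naming rule gave lay in Tra/Trd (218 copies, 24, 47 and 12 against 12, 16 and 9), Trb (452 and 42 copies), Igk (667 and 10668 copies) and Igh (8 and 23 copies). Several of these calls were lost when a HADA library was left out: the Tra/Trd region without HADA 1 (adjusted p = 0.060) or 3 (0.075), the Trb region with 452 copies without HADA 1 (0.070) or 2 (0.0503), the other Igh region with 8 copies, chr12:115615661-115617547, without HADA 1 (0.054) or 3 (0.059), and the Igk region with 10668 copies without any 1 of them (0.060 to 0.12). The last pair was also lost when pileups were divided by background (0.053 and 0.11).

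A region outside the segments was lower too. In the 50 kb before the first Igk segment, chr6:67508371-67510674 had 301, 276 and 590 in control against 246, 119 and 133 in HADA libraries, at −1.84 ± 0.34 (SE, limma adjusted p = 0.007). There, as at Trbv1 and the Trb region above, control 3 had the highest and the HADA 2 and HADA 3 libraries the lowest pileups. Control 3 was also the library with the highest sum of neutrophil markers and the lowest sum of B cell markers, and the part of either in these values was not tested.

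Other windows were compared with all regions by motif. Enhancer windows held kappa-B in 14.7% (4.02% of all regions), CAGCTG in 29.4% (12.3%), CAGGTG in 29.4% (16%) and RUNX in 20.6% (17.6%), with only 34 windows behind each share. GATA was in 8.82% (6.95%), the octamer in 2.94% (1.64%) and the heptamer in 5.88% (6.24%). PU.1 was in 0% (4.16%), ETS in 0% (1.24%) and CTCF in 0% (1.92%). CTCF matches were in 3 of 367 members (0.82%, against 1.92%). A match is a stretch of letters and does not show that a factor bound there.

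The genes of receptor assembly were examined at their starts. Rag1, Dntt, Vpreb1, Vpreb2, Igll1 and Ptcra, which act in developing lymphocytes, had no region at a start in any library. Rag2 had 1 peak, of pileup 19, in HADA 2. The 5 general DNA repair genes had peaks in every library, and of these 1 was higher and 0 lower, against 18.4% and 24.5% of all regions. Ung, which removes uracil from DNA, had 244, 201 and 128 against 557, 499 and 489, at 0.85 ± 0.18 (SE, limma adjusted p = 0.009). Lig4, the ligase of end joining, had 223, 191 and 237 against 376, 283 and 305, at −0.06 ± 0.16 (SE), and Xrcc4, Dclre1c and Prkdc were not called either.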

How the data were processed

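ATAC-seq libraries were made from mouse white blood cells, 3 per group. Per the study's methods and the labels, reads were trimmed (Trimmomatic), aligned to GRCm39 (Bowtie2) and cleared of duplicates (Picard) by the authors, and each library had its own MACS2 peak list. MACS2 options and versions are not given in the sources used here. Each deposited peak has a fold enrichment, which is a ratio to local background, its p-value and q-value as −log10, and an integer score. No read counts or depths were used, so the depth of sequencing is unknown and the number of peaks and the background pileup (1.69 to 2.34) stand in its place.

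The whole-number summit pileup and background of each peak were solved from fold and p-value (100% of peaks). Peaks sharing at least 1 base were joined (Python 3.11.15, pandas 2.3.3), and receptor genes on other chromosomes or far from their locus (4) were left out. Parts were assigned by the summit: inside a segment, then enhancer interval, then within 1 kb of a segment. The Igh, Igk and Igl, Tra/Trd, Trb and Trg members were tested with limma 3.58.1 (R 4.3.3, trended variance) with all 23970 shared regions, after a test on simulated data. That simulation changed few regions, in balanced directions, and held no shift between groups, so it does not test the centring used here. Presence was compared by counts. Named were, for each locus, the tallest member, the tallest of each enhancer interval, up to 5 members a direction by smallest p and up to 3 HADA-only and control-only members by height. Members and lists were chosen with earlier results of these data known. Motifs and copies of the 50 summit bases were searched on both strands of GRCm39. Alternatives were another measure of height, scaling, variance model, set of regions, threshold, locus extension and each library left out. The ratios within a locus, counts for each 10000 regions and counts of groups that do not overlap were added after the data were seen. A few named genes, 1 named region and 1 sequence are not reported here.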

Additional observations from a re-analysis of the deposited data

How the results depend on the processing

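The 13 higher and 17 lower members (18.4% and 24.5% of all regions) became 5 and 1 when peaks were ranked by the deposited fold (7.64% and 5.82% of all regions), 72 and 40 of 225 (23.4% and 23.4% of all regions) when regions in at least 3 libraries entered with a missing pileup at the smallest of the list (members present only where they are high then had to differ), and 125 and 51 of 367, or 34.1% and 13.9%, when groups that do not overlap in pileup over background were counted (32.1% and 20.3% of all regions). They were 10 and 9 with unique summits only (16.5% and 23.8% of all regions), 13 and 10 with equal numbers of strongest peaks (19.6% and 21.0%), and 6 and 13 without the 50 kb extension, which leaves the fit over all regions as it was. These settings other than the fold rank change which members enter, and further causes were not tested. The count of groups that do not overlap used the same filling of missing pileups. Leaving out 1 library gave 8 to 26 higher and 10 to 21 lower, while over all regions 5.60% to 21.0% were higher and 11.97% to 24.4% lower. The largest count, 26, came without control 3, the counts of 8 and 11 without HADA 2 and that of 10 without HADA 1.

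The median immunoglobulin difference of −0.52 was −0.089 normal scores by fold rank, −0.14 with background scaling, 0.55 with regions in at least 3 libraries, 0.015 with unique summits, 0.23 with equal numbers of strongest peaks, −0.65 without extension and −0.62 to 0.033 with 1 library left out. Its sign thus changed between settings, and 0.033 came without control 3. The T cell receptor median of 0.05 was 0.43 with background scaling, −0.14 without extension, where its sign changed, and 0.04 to 0.12 with 1 library left out. HADA-only members numbered 44 to 77 with 1 library left out (77 without control 1), as the share of all regions went from 7.36% to 11.4%, and control-only members 3 to 8, and 10 with equal numbers of strongest peaks. The higher number of member peaks in HADA libraries kept its direction in every setting run, but the difference fell from 107 to 49 members (117 against 166) with equal numbers of strongest peaks.

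The deviations of same-numbered libraries had correlations of −0.08, 0.08 and −0.38, and those of differently numbered ones ran from −0.47 to 0.49. With 3 libraries in each group these values cannot show whether the numbers pair them. A replicate block gave 11 higher and 20 lower members (13.9% and 24.0% of all regions). By fold rank these regions turned direction, none past the test: chr12:113181090-113181694 at −0.25 normal scores, chr12:113185593-113186804 at −0.47, the region between Ighj4 and Ighm at −0.39 and Ighv1-69 at 0.016.

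Peaks with a pileup near 7 to 9 are at the floor of the lists, so absence there is not evidence of closed chromatin.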
